A study of Macaca mulatta with 95 samples.

Results

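The 15 cells described here are inner cells of rhesus macaque (Macaca mulatta) blastocysts that carry NANOG, a transcription factor gene that marks the epiblast. They were taken from 95 single cells, each sequenced as its own library. The epiblast is the part of the inner cell mass that goes on to form the fetus, while the hypoblast lines the yolk sac and the trophectoderm forms the placenta. Of 10 late blastocyst cells whose titles begin with the letter G and whose stage labels do not conflict, 6 had NANOG at 50 RPKM (reads scaled by gene length in kilobases and by library size in megareads) or more and APOA1, an apolipoprotein gene of the hypoblast, below 500 RPKM. Of 9 hatched blastocyst cells whose titles begin with the letter H, all 9 had NANOG at 50 RPKM or more and GATA2, a trophectoderm transcription factor gene, below 50 RPKM. The cells were thus chosen by measured values, and the levels of these 3 genes are given as a description.

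Per the labels, the embryos came from fertilized oocytes of hormone-stimulated females and grew in HECM-9 medium with fetal bovine serum. Late blastocysts, with the cavity fully expanded, were collected near day 6 and hatched blastocysts, which had left the zona pellucida, near day 7. Inner cells were those that a membrane dye (PKH2) applied to the whole embryo had not reached. No genotype or treatment differed between the groups. The labels name no embryo, animal or culture for a cell and do not explain the title letters. The cells of a group therefore count as 1 sample, no p-value or standard error is given, and the spread shown is that between cells. All late cells here carry the letter G and all hatched cells the letter H, so stage and letter cannot be told apart in this comparison. In culture, embryos may also differ from those in the uterus, and cells of 1 letter may come from few embryos.

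NANOG lay at 236 to 1087 RPKM (median 531) in the late cells and at 285 to 1064 RPKM (median 588) in the hatched cells. The cells nearest the limit of 50 RPKM from above were the late cell G-18 at 235.9 RPKM and the hatched cell H-01 at 285 RPKM. All 4 late cells left out lay far below it, at 0.176 to 0.856 RPKM. APOA1 reached at most 1.36 RPKM in the late and 2.74 RPKM in the hatched cells chosen, against 2471 to 4139 RPKM in the late cells G-11, G-12 and G-17. The fourth cell left out, G-23, had APOA1 at 0.952 RPKM and failed on NANOG alone. GATA2 reached 21.0 RPKM in the late cell G-20 and 13.2 RPKM in the hatched cell H-09, and at most 0.45 RPKM in the other 13 cells.

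The label of epiblast was checked against marker lists from which NANOG, APOA1 and GATA2, the genes that chose the cells, were left out. Of 10 other epiblast markers in the table, 9 averaged 5 RPKM or more in the late and 10 in the hatched cells. Their sum per cell was 9469 to 14619 RPKM in late and 6890.4 to 10764 RPKM in hatched cells, against 4.599 to 348 RPKM in 13 letter G cells of the same stages with GATA2 at 50 RPKM or more. The late cells G-11, G-12 and G-17, with APOA1 at 500 RPKM or more, lay closer, with sums of 1138.5 to 2428.7 RPKM. In these APOA1 cells 6 of the 10 markers averaged 5 RPKM or more, and TDGF1 was at 315 to 405 RPKM. Of 15 trophectoderm markers, 5 averaged 5 RPKM or more in each group, namely the keratins KRT7, KRT8, KRT18 and KRT19 and the adaptor gene DAB2, and CGA was at 0 in every cell. The trophectoderm sum was 419 to 3032 RPKM in late and 499.98 to 1996 RPKM in hatched cells, against 2502 to 21653 RPKM in the GATA2 cells. Of 17 hypoblast markers in the table, 3 averaged 5 RPKM or more in late cells and 2 in hatched cells, all of them basement membrane genes (COL4A1, COL4A2, LAMB1). The hypoblast sum was 1.43 to 84.3 RPKM and 1.87 to 41.9 RPKM, against 1809 to 4213 RPKM in the 3 late cells with APOA1, and PDGFRA, APOA2 and APOB were at 0 in both groups. Fibroblast markers summed to 0.256 to 171 RPKM and 88.0 to 417 RPKM, with COL1A2 in both groups, COL1A1 in late and THY1 in hatched cells at a mean of 5 RPKM or more, and COL3A1, LUM, POSTN and FBN1 at 0. Their part in the matrix genes below was not tested. Cumulus markers summed to at most 0.0702 and 6.20 RPKM and blood markers to at most 0.0494 and 39.9 RPKM.

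Relative depth, read from the steps between low values of a gene and set to 1 at the median of all 95 cells, was 0.818 to 1.09 (median 0.996) in late and 0.749 to 1.31 (median 1.02) in hatched cells. The recovered reads were 6.61 to 8.62 megareads (median 8.16) in late and 7.92 to 11.98 megareads (median 9.89) in hatched cells. Genes at 1 RPKM or more numbered 3792 to 5021 (median 4111) per late cell and 4552 to 6859 (median 5746) per hatched cell. The summed RPKM of a cell went the other way, with 736580 to 838820 in late and 605860 to 714850 in hatched cells. More genes were thus detected per hatched cell, with overlap between the groups, and the part of this in the differences below was not tested. Among the hatched cells, H-01 and H-03 had the fewest recovered reads, 7.92 and 8.03 megareads, and the most genes, 6803 and 6859. Amplified complementary DNA without molecular identifiers also leaves many genes at 0 in a cell that may contain their RNA.

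Epiblast cells before implantation are described by a shared core of transcription factors (POU5F1, SOX2, NANOG) and by genes of an earlier, naive state that give way to genes of a later, primed state around implantation. NODAL, BMP, FGF and WNT signals act on these cells. NODAL induces its own inhibitors, the LEFTY genes, while BMP signals induce the ID genes and FGF signals the SPRY and ETV genes.

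Across all genes, more were higher than lower in the hatched cells. A gene counted as measured when its mean reached 5 RPKM in at least 1 group, and as higher or lower when the mean RPKM, with 1 RPKM added, differed at least 2-fold. Ratios are given as the log2 of hatched over late on that scale, which understates the ratio of low genes. Of 6856 measured genes, 2237 were higher (32.6%) and 922 lower (13.4%), with a median log2 ratio of 0.37 over all of them. This split depends on the scaling. Dividing by median-of-ratios size factors gave 1502 higher and 1346 lower of 6339 measured genes and a median of -0.05. Giving every cell the same total gave 2683 and 675 of 6925 measured genes and a median of 0.62. List counts under a scaling, given below, are to be read beside these counts. Among the 945 genes at 5 RPKM or more in all 15 cells the counts were 48 higher and 81 lower, their median ratio being -0.06. Of the 2237 higher genes 137 were at 0 in all late cells, and of the 922 lower genes 26 were at 0 in all hatched cells.

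Single cells carried much of these counts. On medians over cells, differences named below in HORMAD1, OTX2, THY1, EOMES, MIXL1, BMP4, CFC1, ID4, BMPR2, FGF19, DKK1, SFRP1, CDKN1A, BAX, NNAT and NDUFB10 no longer reached 2-fold or turned. The 2-fold difference held whichever 1 cell was left out for 1639 of the higher genes (23.9% of those measured) and 323 of the lower genes (4.71%), and 598 and 599 genes lost it without at least 1 of the cells. Of the genes past 2-fold, 67 were higher in every hatched than in every late cell (0.977% of those measured) and 13 lower (0.190%). Genes without overlap but under 2-fold are not counted here. Of these, 32 of the higher genes were at 5 RPKM or more in every hatched cell and all 13 of the lower genes at 5 RPKM or more in every late cell. Over the measured genes, Spearman's rho between cells had a median of 0.53 among 15 late pairs, 0.59 among 36 hatched pairs and 0.51 among 54 pairs across groups, a description over cells that share letter and depth.

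Since stage and letter coincide, the same genes were read in other inner cells of letters G and H. The early and middle cells were not chosen by NANOG or APOA1. Middle cells of letter G had NANOG at 0.395 to 3.69 RPKM and APOA1 at 105 to 4368 RPKM. Those of letter H had NANOG at 4.45 to 160 RPKM and APOA1 at 0 to 38.3 RPKM. Letter and cell type thus cannot be told apart at that stage. At the early blastocyst, in 2 cells of letter H over 3 of letter G, 29.7% of the genes higher in hatched epiblast cells were at least 2-fold higher and 37.1% lower, against 26.9% and 38.2% of all genes. At the middle blastocyst, with 4 cells each, the shares were 25.1% and 37.8%, against 25.6% and 34.2% of all genes. Within letter G, in 8 hatched over 5 late cells with GATA2 at 50 RPKM or more, 45.7% of these genes were higher and 13.1% lower, against 35.6% and 17.2% of all genes. Of the genes lower in hatched epiblast cells, 22.1% were higher and 47.4% lower in letter H at the early blastocyst, 30.6% and 30.4% at the middle blastocyst, and 28.3% and 28.8% in the hatched cells within letter G. Those 5 late cells, and 4 late cells of letter H named below, have titles that say late blastocyst and source names that say hatched blastocyst. The 4 letter H cells had NANOG at 26.1 to 1208 RPKM and APOA1 at 32.9 to 2320 RPKM. In the 6 late epiblast cells APOA1 was at most 1.36 RPKM, so the letter H cells may differ from them in cell type too. Adding the 3 of those 4 letter H cells that met the NANOG and APOA1 limits to the late group left 1560 higher and 858 lower genes, and 7 and 1 without overlap. It also took the APOA1 ratio from 0.37 to -4.64.

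Most core pluripotency genes differed less than 2-fold between the groups. Of 13 measured, 3 were higher (23.1% beside 32.6% of all genes), 2 lower (15.4% beside 13.4%) and 8 between, with a median of 0.09. Under median-of-ratios scaling 2 were higher and 3 lower. POU5F1, which encodes the factor OCT4 needed for pluripotency, lay at 3727 to 9054 RPKM (median 5962) in late and 2236 to 4858 RPKM (median 2735) in hatched cells, a log2 ratio of -1.01, close to the limit. The POU5F1 ratio ran from -1.12 to -0.86 with 1 cell left out, and was under 2-fold without G-09, G-20, H-01, H-03, H-05, H-07, H-09 or H-10. POU5F1 had a ratio of -0.57 with the 3 late cells of letter H added, -0.80 with equal totals and -0.99 with G-23 added. The groups overlapped in POU5F1 through the hatched cell H-11. In the 4 late cells of letter H it was at 489.5 to 1674 RPKM. SOX2, the partner of OCT4, was at 0.0814 to 127 RPKM (median 92.0) in late and 0.707 to 60.5 RPKM (median 25.4) in hatched cells, with a ratio of -1.503. All late cells but G-06 exceeded every hatched cell in SOX2. The late cells of letter H had 0.0248 to 14.6 RPKM and those of the middle blastocyst at most 0.0612 RPKM.

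NANOG itself differed little, with a log2 ratio of 0.09 that turned to -0.28 under median-of-ratios scaling. TDGF1, the co-receptor of NODAL, differed little too, at 112 to 615 RPKM (median 289) and 181 to 569 RPKM (median 361), a ratio of 0.20 that became -0.17 under that scaling. DPPA2, which encodes a chromatin-associated protein of pluripotent cells, was at 181 to 436 RPKM (median 236) and 226 to 662 RPKM (median 536), a ratio of 0.94, just under the limit. Without cell G-20 the DPPA2 ratio was 1.14, and without H-05 1.04. DPPA2 had a ratio of 1.17 with equal totals. GDF3, a growth factor of the TGF-beta family, had a ratio of -0.40, and L1TD1, an RNA-binding gene, 0.43. Others varied more between cells of a group than between groups. PRDM14 reached 5 RPKM in 2 late and 5 hatched cells, with a ratio of -0.65. Without cell G-14 the PRDM14 ratio was 1.27, and without H-10 -1.10. PRDM14 had a ratio of -1.14 under median-of-ratios scaling. SALL4 had a ratio of -0.23 and UTF1 a ratio of -0.54, both below the limit with all cells. Without cell H-15 the UTF1 ratio was -1.14.

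The higher core genes were RNA regulators of the LIN28 and let-7 axis. LIN28A, which blocks let-7 maturation, was at 1.09 to 59.0 RPKM (median 9.57) in late and 18.1 to 174 RPKM (median 69.3) in hatched cells, a ratio of 1.72. In all late cells but G-06 and G-02 it lay below the lowest hatched cell. Its paralog LIN28B had a ratio of 1.10. The LIN28B ratio ran from 0.80 to 1.66 with 1 cell left out, and was under 2-fold without G-06, G-09, G-18, H-05, H-09 or H-10. LIN28B had a ratio of 0.70 under median-of-ratios scaling. TRIM71, a let-7 target that represses messenger RNA, was at most 0.881 RPKM in late cells and 0 to 17.5 RPKM (median 6.89) in hatched cells, with a ratio of 2.96. LIN28A was also present at 12.9 to 51.9 RPKM in the late cells of letter H, at 10.8 to 46.6 RPKM in middle blastocyst cells of letter G, and at most 0.132 RPKM in those of letter H.

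**Figure D1:**
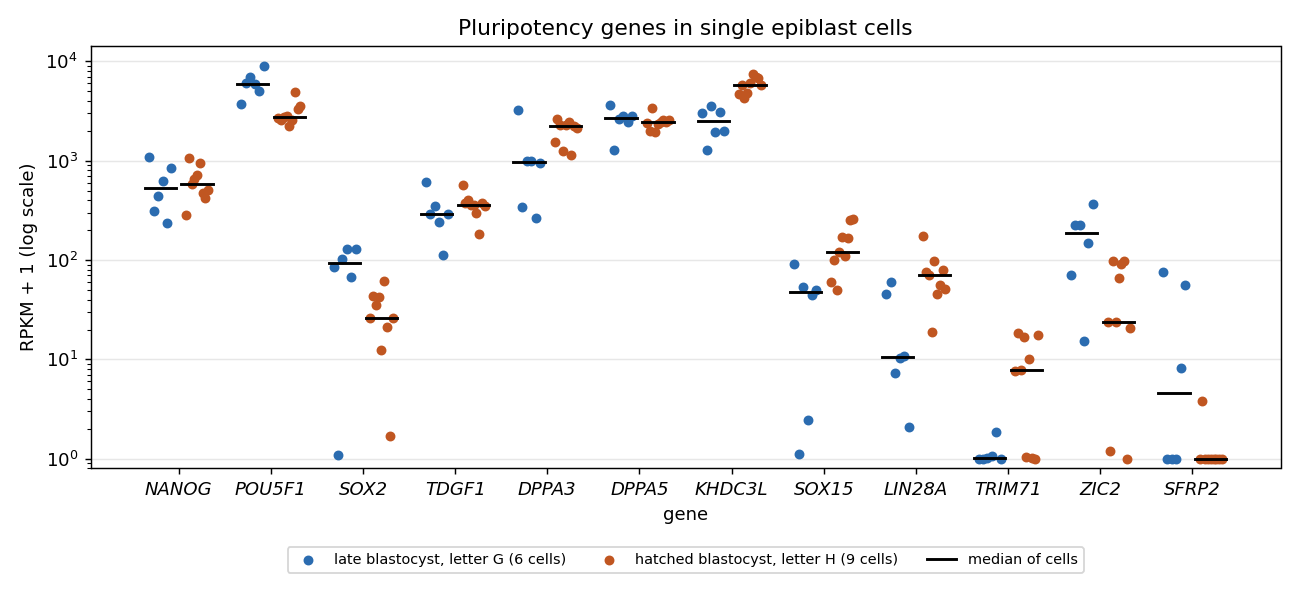
Expression of 12 pluripotency genes in each epiblast cell as RPKM + 1 on a log axis, with late blastocyst cells (letter G, 6 cells) in blue, hatched blastocyst cells (letter H, 9 cells) in orange and the median of each group as a black line. KHDC3L is the gene among these in which every hatched cell lies above every late cell, and SFRP2 stays at 2.82 RPKM or less in all hatched cells.

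Naive-state genes were more often higher than lower in the hatched cells, as genes in general were. Of 14 measured, 5 were higher (35.7% beside 32.6% of all genes) and 1 lower (7.14% beside 13.4%). Their median ratio was 0.52, and of the higher ones 4 held without each cell. With the 3 late cells of letter H added the counts turned to 3 higher and 5 lower. KHDC3L, a gene of the subcortical maternal complex, was at 1276 to 3526 RPKM (median 2493) in late and 4269 to 7464 RPKM (median 5817) in hatched cells, with a ratio of 1.24. KHDC3L had a ratio of 0.92 under median-of-ratios scaling. The groups did not overlap in KHDC3L. In the late cells of letter H it varied from 87.1 to 5151 RPKM. SOX15, a relative of SOX2, was at 0.125 to 91.2 RPKM (median 46.5) and 48.8 to 256 RPKM (median 119.9), a ratio of 1.81. The late cells G-02, G-09 and G-20 reached the hatched range. NR5A2, an orphan nuclear receptor gene that can activate POU5F1, was at 14.7 RPKM in the late cell G-14, at most 0.179 RPKM in the other late cells, and reached 5 RPKM in 7 of 9 hatched cells, with a ratio of 2.11. Without cell G-14 the NR5A2 ratio was 3.86. FGF4, the growth factor that epiblast cells send to the hypoblast, reached 5 RPKM in 1 late and 4 hatched cells. Its ratio was 2.27. Without cell G-18 the FGF4 ratio was 2.98, and without H-14 1.07. FGF4 had a ratio of -2.001 with the 3 late cells of letter H added. HORMAD1, a meiotic gene, was at 48.0 RPKM in H-15 and at most 0.0432 RPKM in the other 14 cells.

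The remaining naive genes lay within the limit, except DNMT3L. KLF5, TFAP2C, VENTX and KHDC1L were among them. KLF5 had a ratio of -1.27 with G-23 added. DPPA5, an RNA-binding gene of pluripotent cells, was at 1293 to 3627 RPKM (median 2706) in late and 1933 to 3359 RPKM (median 2472) in hatched cells, a ratio of -0.08 that became 0.14 with equal totals. DPPA3, a maternal factor that guards DNA methylation, had a median of 967 RPKM in late and 2255 RPKM in hatched cells and a ratio of 0.82. Without cell G-02 the DPPA3 ratio was 1.495. DPPA3 had a ratio of 1.02 with equal totals and 1.01 with G-23 added. KLF4 had medians of 24.2 and 87.4 RPKM and a ratio of 0.44. Without cell G-02 the KLF4 ratio was 1.74. KLF4 had a ratio of -1.26 with the 3 late cells of letter H added. NLRP7, a maternal-effect gene, was at 455 to 867 RPKM (median 519) and 614 to 1171 RPKM (median 828.6). DNMT3L, a cofactor of DNA methylation, was the lower gene, at 249 to 1269 RPKM (median 636) in late and 151 to 733 RPKM (median 291) in hatched cells, with a ratio of -1.01. The DNMT3L ratio ran from -1.26 to -0.70 with 1 cell left out, and was under 2-fold without G-02, G-09, H-01, H-05, H-07, H-09, H-10 or H-14. DNMT3L had a ratio of -0.81 with equal totals and -0.92 with G-23 added. The methyltransferases DNMT3A and DNMT3B had ratios of 0.67 and 0.54, and of 9 measured DNA methylation genes only DNMT3L passed the limit, against 2 higher and 0 lower with equal totals.

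More primed-state genes were lower than higher in the hatched cells. Of 13 measured, 4 were lower (30.8% beside 13.4% of all genes) and 1 higher (7.69% beside 32.6%). Their median was -0.24 beside 0.37 for all genes, though only 2 of the lower genes held without each cell. ZIC2, a zinc finger transcription factor of the primed epiblast, was at 14.4 to 363 RPKM (median 186) in late and 0 to 97.4 RPKM (median 22.9) in hatched cells, a ratio of -1.89. ZIC2 was at most 0.256 RPKM in every early and middle blastocyst inner cell of letters G and H, and at most 0.217 RPKM in the late cells of letter H. It was not particular to epiblast cells, since the late cells G-11, G-12 and G-17, left out with low NANOG and high APOA1, had 1157, 361 and 418 RPKM. SFRP2, a secreted WNT antagonist, reached 5 RPKM in the late cells G-02, G-18 and G-20 only and was at most 2.82 RPKM in hatched cells, with a ratio of -4.18. Without cell G-02 the SFRP2 ratio was -3.35. The pair OTX2 and CD24 rested on few cells. OTX2, an anterior epiblast factor, was at 46.8 RPKM in the late cell G-09 and at most 0.106 RPKM in all others, and CD24, a surface glycoprotein, had a ratio of -1.36. Without cell G-20 the CD24 ratio was -0.76. THY1, a surface protein of primed stem cells and fibroblasts, was at 108.4 RPKM in the hatched cell H-11 and listed at 0 in the other 14 cells. SALL2, ETV4, ETV5, USP44 and TCF7L1 lay within the limit. Without cell G-14 the USP44 ratio was 1.37. Without cell G-20 the TCF7L1 ratio was -1.01, and without H-15 -1.04. TCF7L1 had a ratio of -1.20 under median-of-ratios scaling. ETV5 had a ratio of -1.79 with G-23 added.

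Gastrulation genes were on in some late cells. T, which encodes Brachyury of the primitive streak, was at 30.2, 291, 51.5, 0, 22.6 and 2.27 RPKM in the late cells G-02, G-06, G-09, G-14, G-18 and G-20. In the hatched group it was at 47.3 RPKM in H-01 and at most 0.0376 RPKM in the other 8 cells, which gave a ratio of -3.43. Without cell G-06 the T ratio was -1.83, and without H-01 -6.06. EOMES, another T-box gene of the streak, was at 75.2 RPKM in G-06 and at most 0.46 RPKM in any other cell of either group. MIXL1 reached 5 RPKM in the late cells G-06 and G-18 and the hatched cell H-05. The cell G-23, which lacks NANOG and is not among the 15, had T at 791 RPKM and EOMES at 170.2 RPKM beside POU5F1 at 5635 RPKM. With it in the late group the T ratio was -4.77 and the EOMES ratio -5.17. EOMES was also at 498, 75.3 and 190 RPKM in the late cells G-11, G-12 and G-17, left out with low NANOG and high APOA1. T was at 0.0944, 68.0 and 0.0809 RPKM in them.

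The BMP targets of the ID family were lower together in the hatched cells. They encode inhibitors of basic helix-loop-helix factors. ID1 was at 93.1, 110.6, 174.8, 154.4, 132.8 and 251.6 RPKM in the late cells G-02, G-06, G-09, G-14, G-18 and G-20. In hatched cells it was at 15.8 RPKM in H-03, 7.34 RPKM in H-09 and 67.3 RPKM in H-15, and at most 0.0522 RPKM in the other 6. No cell of the groups overlapped, and the ratio was -3.80. Without cell H-15 the ID1 ratio was -5.30. ID1 was lower in the other inner cells, at most 0.0875 RPKM in the late cells of letter H and 15.8 RPKM in the early and middle inner cells of both letters. G-23 had 357 RPKM.

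ID2 was at 0 to 542 RPKM (median 157) in late and 0 to 136 RPKM (median 15.0) in hatched cells, a ratio of -2.92. Without cell H-11 the ID2 ratio was -3.85. ID3 was at 2.63 to 1041 RPKM (median 47.6) in late and 0.0417 to 14.4 RPKM (median 0.579) in hatched cells, a ratio of -6.11. Without cell G-20 the ID3 ratio was -5.30. The late cells G-09 and G-20 were far above the rest in ID3, at 824 and 1041 RPKM. Unlike ID1, ID3 was present earlier, at 115 to 389 RPKM in early inner cells of letter G and 86.9 to 819 RPKM in middle inner cells of letter H. ID4 had a ratio of -1.76. The ID4 ratio ran from -3.63 to -1.03 with 1 cell left out, and differed most without G-09, G-20 or H-05. Genes upstream of the ID family were higher, in few cells. BMP4, a ligand, was listed at 0 in all late cells and at 56.4 and 57.9 RPKM in the hatched cells H-05 and H-07. BAMBI, a decoy receptor, reached 5 RPKM in 2 late and 6 hatched cells, with a ratio of 1.56, and the type II receptor gene BMPR2 had a ratio of 1.65. Without cell G-14 the BAMBI ratio was 2.31. BAMBI had a ratio of 0.65 with the 3 late cells of letter H added and 0.33 with G-23 added. Without cell G-18 the BMPR2 ratio was 3.35, and without H-15 1.06. Of 9 measured BMP genes, 3 were thus higher (33.3% beside 32.6% of all genes) and 4 lower (44.4% beside 13.4%), and all 7 held without each cell.

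Of 12 measured genes of the NODAL pathway, 3 were higher (25% beside 32.6% of all genes) and 2 lower (16.7% beside 13.4%). Under median-of-ratios scaling 4 were lower, beside 1346 of 6339 genes in all. NODAL, the ligand, was at 0.0522 to 180.1 RPKM (median 73.9) in late and 0.147 to 97.8 RPKM (median 50.5) in hatched cells, a ratio of -0.94. The NODAL ratio ran from -1.21 to -0.51 with 1 cell left out, and was past 2-fold without G-02, G-14, G-20, H-01, H-03 or H-15. NODAL had a ratio of -1.32 under median-of-ratios scaling. The groups overlapped widely in NODAL. LEFTY1, the feedback inhibitor, was at most 0.277 RPKM in all 6 late cells. In the hatched cells H-01, H-03, H-05, H-07, H-09, H-10, H-11, H-14 and H-15 it was at 7.6, 61.9, 230.5, 185, 60.9, 3.87, 285, 55.6 and 0.115 RPKM, which gave a ratio of 6.49. LEFTY1 reached at most 23.6 RPKM in late cells of letter H, 173 RPKM in middle cells of letter G and 125 RPKM in those of letter H. LEFTY2 is a closely similar paralog, and reads may be split between the pair by the counting. It reached 5 RPKM in the late cells G-02 and G-18 and in 4 hatched cells, with a ratio of 2.26. Without cell G-18 the LEFTY2 ratio was 3.80, and without H-07 1.11. LEFTY2 had a ratio of -0.051 with G-23 added. CFC1, a NODAL co-receptor, reached 5 RPKM in G-09 at 45.1 RPKM and in H-14 at 5.09 RPKM, and the mediator SMAD4 had a ratio of -1.02. The SMAD4 ratio ran from -1.45 to -0.87 with 1 cell left out, and was under 2-fold without G-18, G-20, H-03, H-05, H-11, H-14 or H-15. SMAD4 had a ratio of -0.90 with the 3 late cells of letter H added, -0.75 with equal totals and -0.98 with G-23 added. FOXH1, the nuclear partner of the SMADs, was at 24.3 to 152 RPKM (median 96.0) and 56.7 to 224 RPKM (median 119.9).

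**Figure D2:**
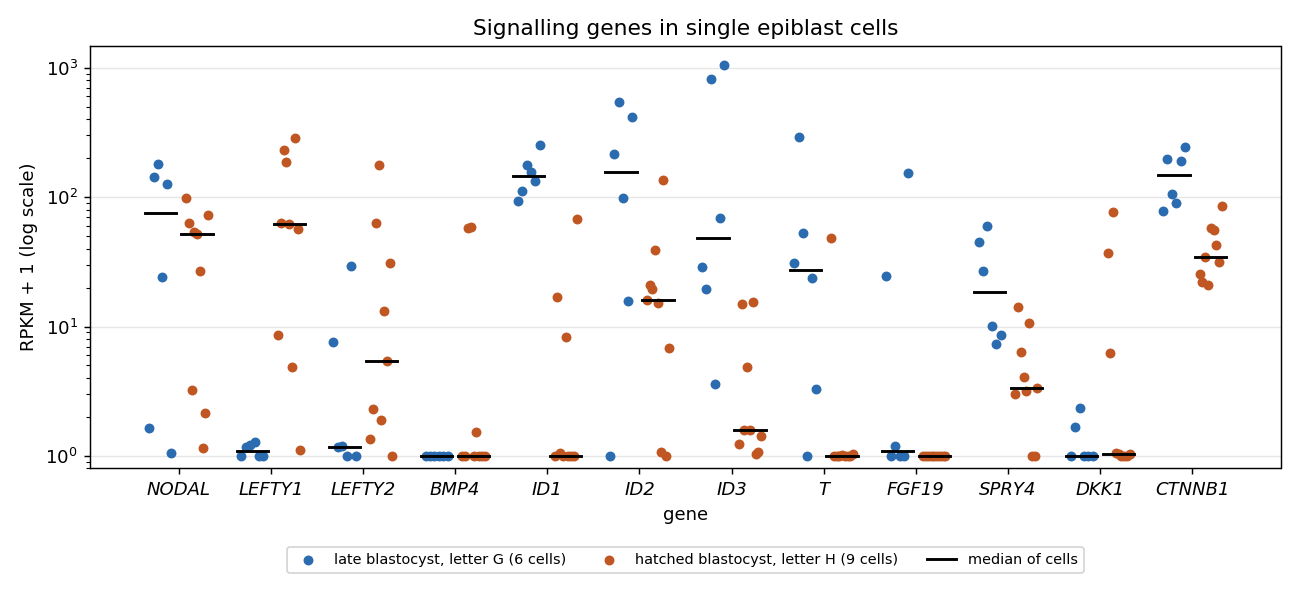
Expression of 12 signalling genes in each epiblast cell as RPKM + 1 on a log axis, with late cells (letter G) in blue, hatched cells (letter H) in orange and group medians as black lines. The 6 late cells sit between 93.1 and 252 RPKM for ID1, above all hatched cells, while 8 of the 9 hatched cells exceed every late cell for LEFTY1.

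FGF and WNT genes included more lower than higher members. Of 9 measured FGF genes, 4 were lower (44.4% beside 13.4% of all genes) and 1 higher (11.1% beside 32.6%). Of 12 WNT genes 3 were lower (25%) and 1 higher (8.33%). Under median-of-ratios scaling 6 WNT genes were lower, beside 1346 of 6339 genes in all. With the 3 late cells of letter H added, 7 FGF and 2 WNT genes were lower and 0 higher. SPRY4, a feedback inhibitor induced by FGF signals, was at 6.37 to 58.7 RPKM (median 17.4) in late and 0 to 13.2 RPKM (median 2.34) in hatched cells, a ratio of -2.34. FGF19, a secreted ligand, was at 23.8 RPKM in G-02 and 153 RPKM in G-20 and listed at 0 in all hatched cells, with at most 0.0281 RPKM in early and middle inner cells of both letters. IER3, an ERK-responsive gene, reached 5 RPKM in 3 late cells and at most 1.15 RPKM in hatched cells. Among receptors, FGFR3 had a ratio of -1.74. Without cell G-06 the FGFR3 ratio was -0.83. FGFR1 was at 48.1 to 173 RPKM (median 111) and 41.6 to 161 RPKM (median 88.9).

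CTNNB1, which encodes beta-catenin of the WNT pathway and of cell junctions, was at 76.7 to 242 RPKM (median 146) in late and 20.0 to 84.1 RPKM (median 33.7) in hatched cells, a ratio of -1.84. Only the hatched cell H-15 reached the late range. The late cells of letter H had 15.2 to 117 RPKM and the early and middle cells of both letters 10.9 to 104 RPKM. DKK1, a WNT antagonist, was at 35.8, 5.19 and 76.2 RPKM in the hatched cells H-01, H-03 and H-05, and at most 1.36 RPKM in late cells, a ratio of 3.39. Without cell H-05 the DKK1 ratio was 2.20. DKK1 had a ratio of 0.64 with the 3 late cells of letter H added. SFRP1, another antagonist, was at 43.8 RPKM in the late cell G-09 and at most 0.0498 RPKM in the other cells. Of 5 measured LIF and IL6 genes, the shared receptor gene IL6ST and the feedback gene SOCS2 were higher (40.0% beside 32.6% of all genes). Their ratios were 1.66 and 1.35. Without cell G-09 the IL6ST ratio was 2.29. IL6ST had a ratio of 0.33 with the 3 late cells of letter H added. Without cell G-18 the SOCS2 ratio was 3.24. SOCS2 had a ratio of 0.52 with the 3 late cells of letter H added.

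Genes of the p53 and amino acid stress responses were higher in the hatched cells. Of 16 measured, 8 were higher (50.0% beside 32.6% of all genes) and 1 lower, their median ratio being 1.31, and all 8 held without each cell. Under the other scalings 8 and 9 were higher. TRIB3, a pseudokinase gene induced by ATF4, was at most 0.0975 RPKM in late cells and 0 to 156 RPKM (median 44.7) in hatched cells. CHAC1, a glutathione-degrading enzyme of the same response, was at most 0.0409 RPKM in late cells and 0 to 125 RPKM (median 23.2) in hatched cells. Both reached 5 RPKM in 6 of 9 hatched cells and in no late cell. The ratios were 5.66 for TRIB3 and 5.18 for CHAC1. CHAC1 was at most 0.193 RPKM in all early, middle and late inner cells of letter H, whereas TRIB3 reached 43.4 RPKM in the late ones. DDIT4, a stress-induced inhibitor of mTOR, reached 5 RPKM in 7 hatched cells and at most 0.258 RPKM in late cells, a ratio of 4.91. CDKN1A, the p53 target p21, was above 5 RPKM in the hatched cells H-03, H-07 and H-10 only.

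ASNS, asparagine synthetase, and SESN2, a leucine sensor, belong to the same list. ASNS was at 0.0292 to 165 RPKM (median 45.5) in late and 151 to 609 RPKM (median 229.8) in hatched cells, a ratio of 2.20. It was also present at 233 to 328 RPKM in early cells of letter G. SESN2 was at 0.233 to 68.8 RPKM (median 15.9) and 14.1 to 249 RPKM (median 59.7), a ratio of 1.67. BAX, a p53 target that drives cell death, was the lower member, through few cells, with a ratio of -1.69 that turned to 0.50 on medians over cells. Without cell G-20 the BAX ratio was -0.43, and without H-09 -2.71.

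Outside the lists, TP53I3, another p53 target, and DDIT4L, a relative of DDIT4, led the genes whose cells did not overlap. TP53I3 was at most 0.302 RPKM in late and at 14.7 to 189.8 RPKM (median 88.6) in hatched cells, a ratio of 6.46. TP53I3 had a ratio of 0.21 with the 3 late cells of letter H added. Elsewhere TP53I3 differed at the middle blastocyst between cells of letters H and G, which also differed in NANOG and APOA1. It was at 178 to 341 RPKM in late and 13.6 to 137 RPKM in middle cells of letter H, against at most 0.0947 RPKM in middle cells of letter G, although early cells of letter G had 5.41 to 113 RPKM. DDIT4L was at most 0.0284 RPKM in late and 0.059 to 526.4 RPKM (median 46.1) in hatched cells, with a ratio of 6.60. Without cell H-11 the DDIT4L ratio was 5.45.

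Apoptosis genes went in both directions. Of 13 measured, 5 were higher (38.5% beside 32.6% of all genes) and 4 lower (30.8% beside 13.4%). BAK1, a pore-forming member of the BCL2 family, was at 0.0818 to 32.8 RPKM (median 14.6) and 13.0 to 285 RPKM (median 58.8), a ratio of 2.69. BAK1 had a ratio of 0.49 with the 3 late cells of letter H added. The BH3-only genes BAD and BID were lower, with ratios of -2.76 and -2.18. Without cell H-14 the BAD ratio was -3.78. Without cell G-09 the BID ratio was -1.12, and without H-05 -2.99. BAK1 was at 334 to 501 RPKM in middle cells of letter H against 3.38 to 35.9 RPKM in those of letter G. These 2 groups also differed in NANOG and APOA1.

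Some serine, one-carbon and proline enzymes were higher as well. Of 14 measured, 6 were higher (42.9% beside 32.6% of all genes) and 0 lower, their median ratio being 0.87, and 5 held without each cell. Under median-of-ratios scaling 4 were higher and 1 lower, and with equal totals 9 and 0. PSAT1, which makes phosphoserine, was at 0.029 to 156 RPKM (median 44.2) in late and 229.7 to 865 RPKM (median 319.6) in hatched cells, with no overlap and a ratio of 2.58. PHGDH, the enzyme that opens the serine pathway, was at 0 to 72.1 RPKM (median 30.5) and 65.9 to 229.8 RPKM (median 82.9), a ratio of 1.99. In late cells of letter H, PSAT1 was at 13.9 to 76.4 RPKM and PHGDH at most 0.106 RPKM, both below the hatched cells. PYCR1, of proline synthesis, and MTHFD1L, of mitochondrial folate metabolism, had ratios of 2.32 and 1.93. MTHFD1L had a ratio of 0.77 with the 3 late cells of letter H added. The cell G-23 had PSAT1 at 275 and PHGDH at 218 RPKM, within the hatched range.

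Sterol genes were mixed. Of 14 measured, 7 were higher (50.0% beside 32.6% of all genes) and 2 lower (14.3% beside 13.4%). The counts were 6 and 5 under median-of-ratios scaling and 4 and 4 with the 3 late cells of letter H added. FDPS, farnesyl diphosphate synthase, reached 5 RPKM in 2 late and 8 hatched cells, at up to 27.6 and 267 RPKM, with a ratio of 3.61. Without cell G-06 the FDPS ratio was 4.73. CYP51A1, the lanosterol demethylase, was at most 0.0629 RPKM in late cells and above that in every hatched cell, though it reached 5 RPKM in only 5 of them. NSDHL had a ratio of 1.72. INSIG1, the sterol-sensing brake on this pathway, was lower, with a ratio of -3.53. Without cell G-09 the INSIG1 ratio was -2.53.

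Glycolytic genes were more often lower. Of 17 measured, 4 were lower (23.5% beside 13.4% of all genes) and 1 higher (5.88% beside 32.6%), with a median of -0.41. With equal totals 4 were lower and 3 higher. With the 3 late cells of letter H added 6 were lower and 0 higher. TPI1, triosephosphate isomerase, was at 205 to 721 RPKM (median 346) in late and 43.5 to 197 RPKM (median 77.9) in hatched cells, with no overlap and a ratio of -1.84. SLC2A3, the glucose transporter GLUT3, was at 221 to 619 RPKM (median 463) and 28.9 to 287 RPKM (median 90.9), a ratio of -1.82. These 2 genes were also high in the late cells of letter H, with TPI1 at 229 to 684 RPKM and SLC2A3 at 396 to 615 RPKM, every cell above the highest hatched cell. ALDOA, an aldolase, had a ratio of -1.36 and was at 127 to 143 RPKM in those cells. LDHA, lactate dehydrogenase, was higher, with a ratio of 1.31. LDHA had a ratio of -1.76 with the 3 late cells of letter H added. GAPDH, a glycolytic gene of every cell, was at 670.0 to 1538 RPKM (median 1188) and 1462 to 2547 RPKM (median 1991), a ratio of 0.84, within the limit. GAPDH had a ratio of 1.07 with equal totals.

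**Figure D3:**
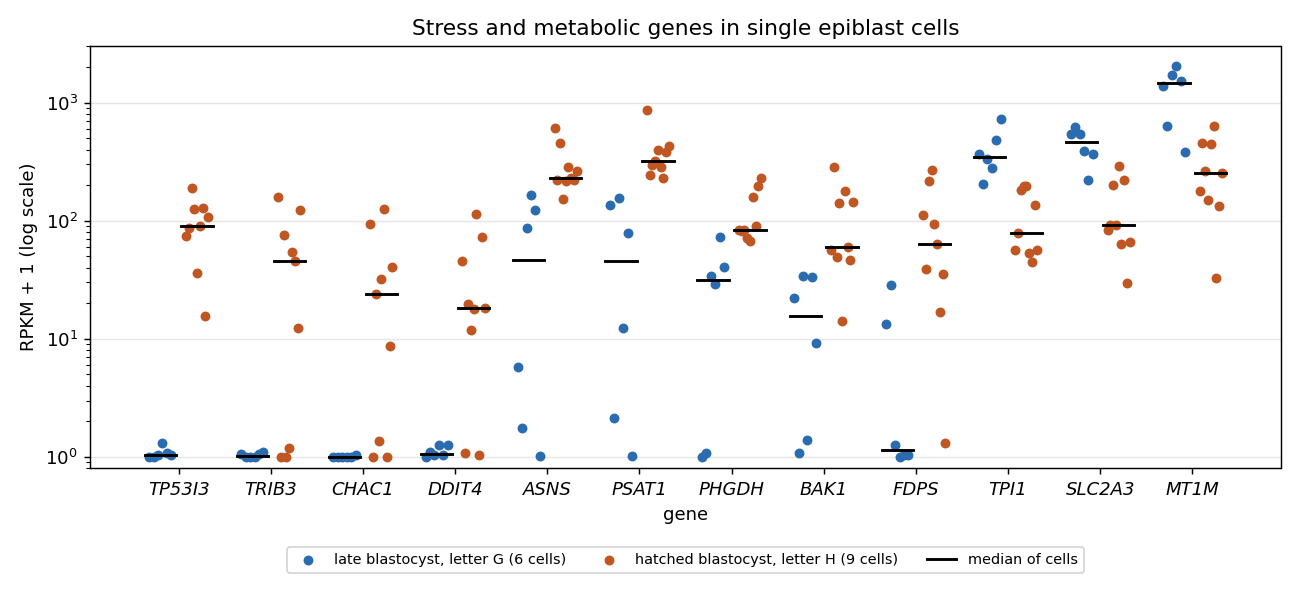
Expression of 12 stress, death and metabolic genes in each epiblast cell as RPKM + 1 on a log axis, with late cells (letter G) in blue, hatched cells (letter H) in orange and group medians as black lines. TP53I3 and PSAT1 are higher in every hatched than in every late cell, TPI1 is lower in every hatched cell, and TRIB3, CHAC1 and DDIT4 are near 0 in some hatched cells and reach 5 RPKM in others.

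Cytosolic ribosomal protein genes, which every growing cell uses at high level, were more often lower than higher. Of 78 measured, 16 were lower (20.5% beside 13.4% of all genes) and 1 higher, with a median of -0.47. The counts were 31 lower and 0 higher under median-of-ratios scaling, 9 and 2 with equal totals, and 6 and 1 with the 3 late cells of letter H added. Under median-of-ratios scaling 1346 of 6339 genes in all were lower. RPLP2, a stalk protein gene, was at 5068 to 14970.0 RPKM (median 9224) in late and 2324 to 4658 RPKM (median 2619) in hatched cells, with no overlap and a ratio of -1.67. RPL35A was at 3755 to 11283 RPKM (median 5284) and 1273 to 2972 RPKM (median 1951), a ratio of -1.56. RPS13 had a ratio of -1.82 and RPL13 a ratio of -1.65. Pseudogene copies may share reads with any of these genes. In the late cells of letter H, RPLP2 was at 2988 to 3950.4 RPKM, RPL35A at 1719.9 to 2039 RPKM and RPS13 at 3034 to 3468 RPKM, all inside the hatched range, whereas middle cells of letter H had RPLP2 at 8812 to 13153 RPKM. RPL22L1, a paralog of RPL22, was at 280.1 to 439 RPKM (median 366) and 9.14 to 170.2 RPKM (median 107), again without overlap.

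Respiratory chain genes differed little as a group, with 8 of 76 higher (10.5% beside 32.6% of all genes) and 5 lower (6.58% beside 13.4%). The counts were 2 and 13 under median-of-ratios scaling, beside 1502 and 1346 of 6339 genes in all. They were 1 and 3 with the 3 late cells of letter H added. NDUFB10, a subunit of complex I, was lower without overlap, at 649 to 1474 RPKM (median 830.3) and 264 to 498 RPKM (median 464), with a ratio of -1.14. Without cell G-20 the NDUFB10 ratio was -0.97. NDUFB10 had a ratio of -0.93 with the 3 late cells of letter H added and -0.92 with equal totals. COX6B1 was higher, with a ratio of 1.62. COX6B1 had a ratio of -0.0044 with the 3 late cells of letter H added. Metallothionein genes, which bind zinc and copper and share much sequence, were lower in 5 of 9 (55.6% beside 13.4% of all genes) and higher in 0. Once the 3 late cells of letter H were added 8 were lower. MT1M was at 379.9 to 2056 RPKM (median 1448) in late and 31.5 to 637 RPKM (median 251) in hatched cells, a ratio of -2.18. MT1H had a ratio of -1.88. The late cells of letter H had MT1M at 387 to 1714 RPKM, and early and middle cells of both letters between 291 and 4732 RPKM.

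Immediate early genes, which respond within minutes to signals or handling, were lower in 5 of 8 (62.5% beside 13.4% of all genes) and higher in 1. IER2 was at 12.2 to 194 RPKM (median 72.9) in late and 5.94 to 36.0 RPKM (median 14.2) in hatched cells, a ratio of -2.25. FOS was at 0.0285 to 272 RPKM (median 35.1) and 0.0247 to 28.2 RPKM (median 0.205), a ratio of -2.82. Without cell G-14 the FOS ratio was -1.46. JUNB reached 5 RPKM in 3 late cells and in no hatched cell. Chaperone genes were lower in 4 of 16 (25% beside 13.4% of all genes) and higher in 0. Among the lower ones HSPA1A, which has a near-identical copy, had a ratio of -2.95. Without cell G-14 the HSPA1A ratio was -2.23, and without H-03 -3.70.

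Cell cycle genes were called no more often than all genes, of which 32.6% were higher and 13.4% lower. Of 16 S phase genes 2 were higher (12.5%) and 0 lower, or 0 and 1 under median-of-ratios scaling, and of 14 G2 and M genes 4 higher (28.6%) and 1 lower. With the 3 late cells of letter H added, 0 of the S phase and 0 of the G2 and M genes were higher and 0 and 1 lower. CCNB1, cyclin B1, was at 0.206 to 91.0 RPKM (median 44.2) in late and 31.4 to 250.3 RPKM (median 98.9) in hatched cells, a ratio of 1.34. CCNB1 had a ratio of 0.27 with the 3 late cells of letter H added. AURKA, a mitotic kinase, reached 5 RPKM in no late and 5 hatched cells, a ratio of 4.00. Without cell H-03 the AURKA ratio was 3.26. AURKA had a ratio of 0.41 with the 3 late cells of letter H added and 0.66 with G-23 added. CCND3, a G1 cyclin, was at 0.585 to 142 RPKM (median 3.93) and 51.7 to 219.9 RPKM (median 97.9), a ratio of 1.95. Without cell G-09 the CCND3 ratio was 4.502. The late cell G-09 alone had CCND3 in the hatched range.

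Of 18 measured chromatin repression genes, 3 were higher (16.7% beside 32.6% of all genes) and 0 lower. The histone demethylase gene KDM6A, which lies on the X chromosome, was at most 1.17 RPKM in late and at 1.34 to 19.9 RPKM (median 7.65) in hatched cells, without overlap and with a ratio of 2.93. Other X-linked genes were higher too, with ratios of 1.61 for USP9X, 1.19 for DDX3X and 1.06 for EIF1AX. DDX3X had a ratio of 0.73 with the 3 late cells of letter H added, 0.77 under median-of-ratios scaling and 0.96 with G-23 added. The EIF1AX ratio ran from 0.95 to 1.22 with 1 cell left out, and was under 2-fold without G-02, G-09, G-20, H-11 or H-15. EIF1AX had a ratio of 0.73 under median-of-ratios scaling and 0.53 with G-23 added. Of the 5 measured sex-linked genes 4 were higher, beside 32.6% of all genes, and 0 lower. Under median-of-ratios scaling 2 of these 5 were higher, beside 1502 of 6339 genes in all. Of 6 imprinted genes 2 were higher (33.3% beside 32.6% of all genes) and 2 lower (33.3% beside 13.4%). With the 3 late cells of letter H added 0 were higher and 2 lower. MEST and GRB10 were higher, with ratios of 1.56 and 1.83, and NNAT lower, at 75.8 and 44.2 RPKM in 2 late cells and at most 1.86 RPKM in hatched cells. Without cell G-02 the MEST ratio was 2.43. MEST had a ratio of 0.99 with the 3 late cells of letter H added. GRB10 had a ratio of 0.57 with the 3 late cells of letter H added. DPRX, a homeobox gene of embryonic genome activation, was at 1.36 to 662 RPKM (median 269) and 397 to 1739 RPKM (median 974), a ratio of 1.89. CLDN7, a tight junction gene, had a ratio of 3.56. Of 15 junction genes 4 were higher (26.7% beside 32.6% of all genes) and 1 lower (6.67% beside 13.4%). The counts became 3 and 3 under median-of-ratios scaling and 2 and 3 with the 3 late cells of letter H added. CLDN7 had a ratio of 0.72 with the 3 late cells of letter H added. ALPL, the alkaline phosphatase of stem cells, had a ratio of -2.11. Matrix and integrin genes were higher in 4 of 10 (40.0% beside 32.6% of all genes) and lower in 1 (10.0% beside 13.4%), or 1 and 1 under median-of-ratios scaling. Of 8 measured surface protein genes of pluripotent cells 2 were higher and 2 lower. Of 8 germ line genes 3 were higher and 2 lower. Both counts are to be read beside 32.6% higher and 13.4% lower of all genes.

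**Figure D4:**
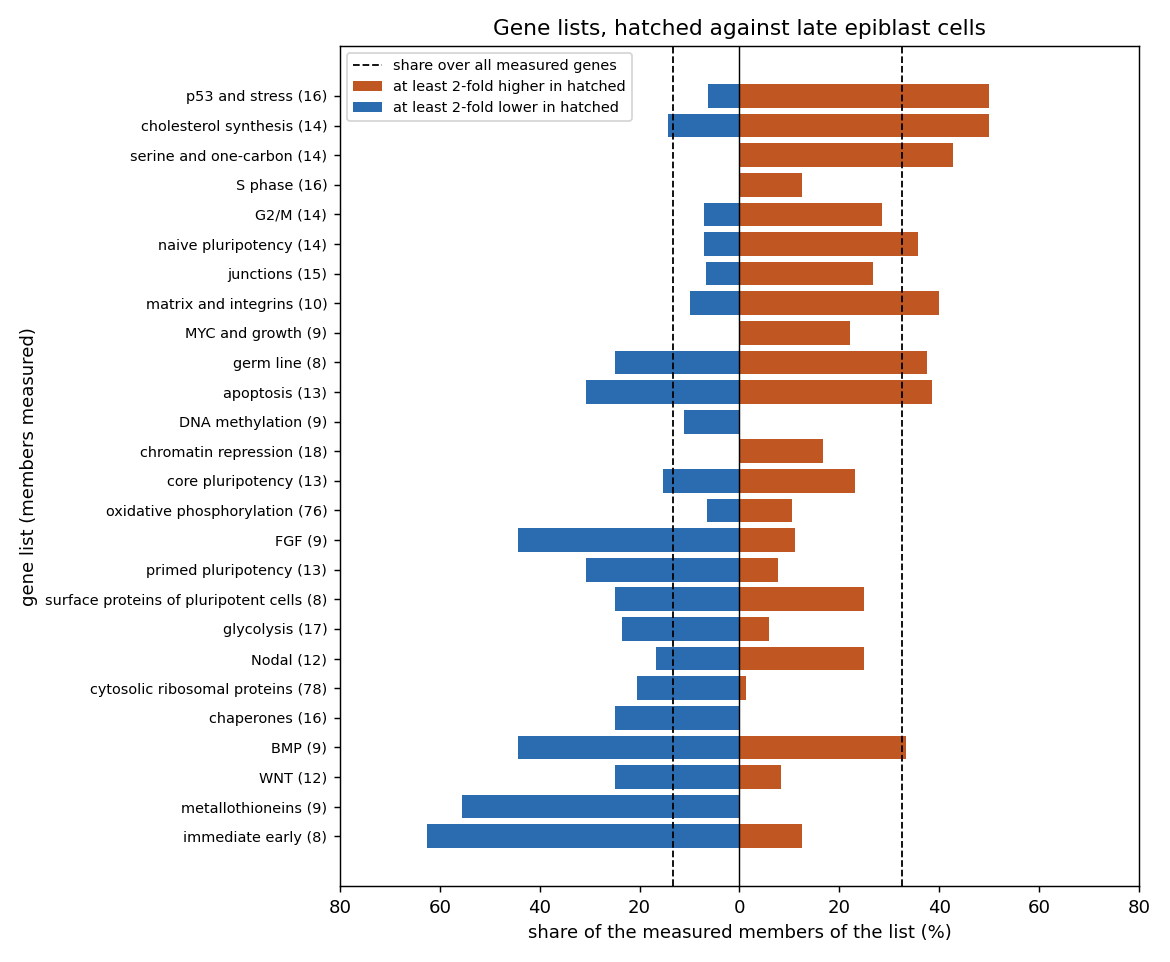
Share of the measured members of each gene list with 8 or more measured members (number in brackets) that were at least 2-fold higher (orange, right) or lower (blue, left) in hatched than in late cells, sorted by the list's median log2 ratio. Dashed lines mark the shares over all measured genes, 32.6% higher and 13.4% lower, and immediate early and metallothionein genes reach farthest to the left.

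The genes with the largest ratios among those whose cells did not overlap were often listed at or near 0 in every late cell. IL18, a cytokine gene, was listed at 0 in all 6 late cells and at 0.495 to 144 RPKM (median 36.1) in hatched cells. It was also at 0 in all early and middle inner cells of letters G and H and in the late cells of letter H. SLC37A4, the glucose-6-phosphate transporter, was at most 0.175 RPKM in late and 17.1 to 154 RPKM (median 43.4) in hatched cells, a ratio of 5.63. GTPBP8, a mitochondrial GTPase gene, was at most 0.19 RPKM and at 10.1 to 86.3 RPKM (median 33.8), a ratio of 5.51. Unlike the late epiblast cells, early inner cells of letter G had SLC37A4 at 27.0 to 143 RPKM and GTPBP8 at 4.91 to 97.1 RPKM. PBX3, a homeobox gene, reached 5 RPKM in 6 hatched cells and at most 0.0252 RPKM in late cells. On the lower side, RASSF3, of the RAS-association family, was at 66.6 to 135 RPKM (median 79.1) and 0.0304 to 35.7 RPKM (median 24.6), a ratio of -1.86.

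**Figure D5:**
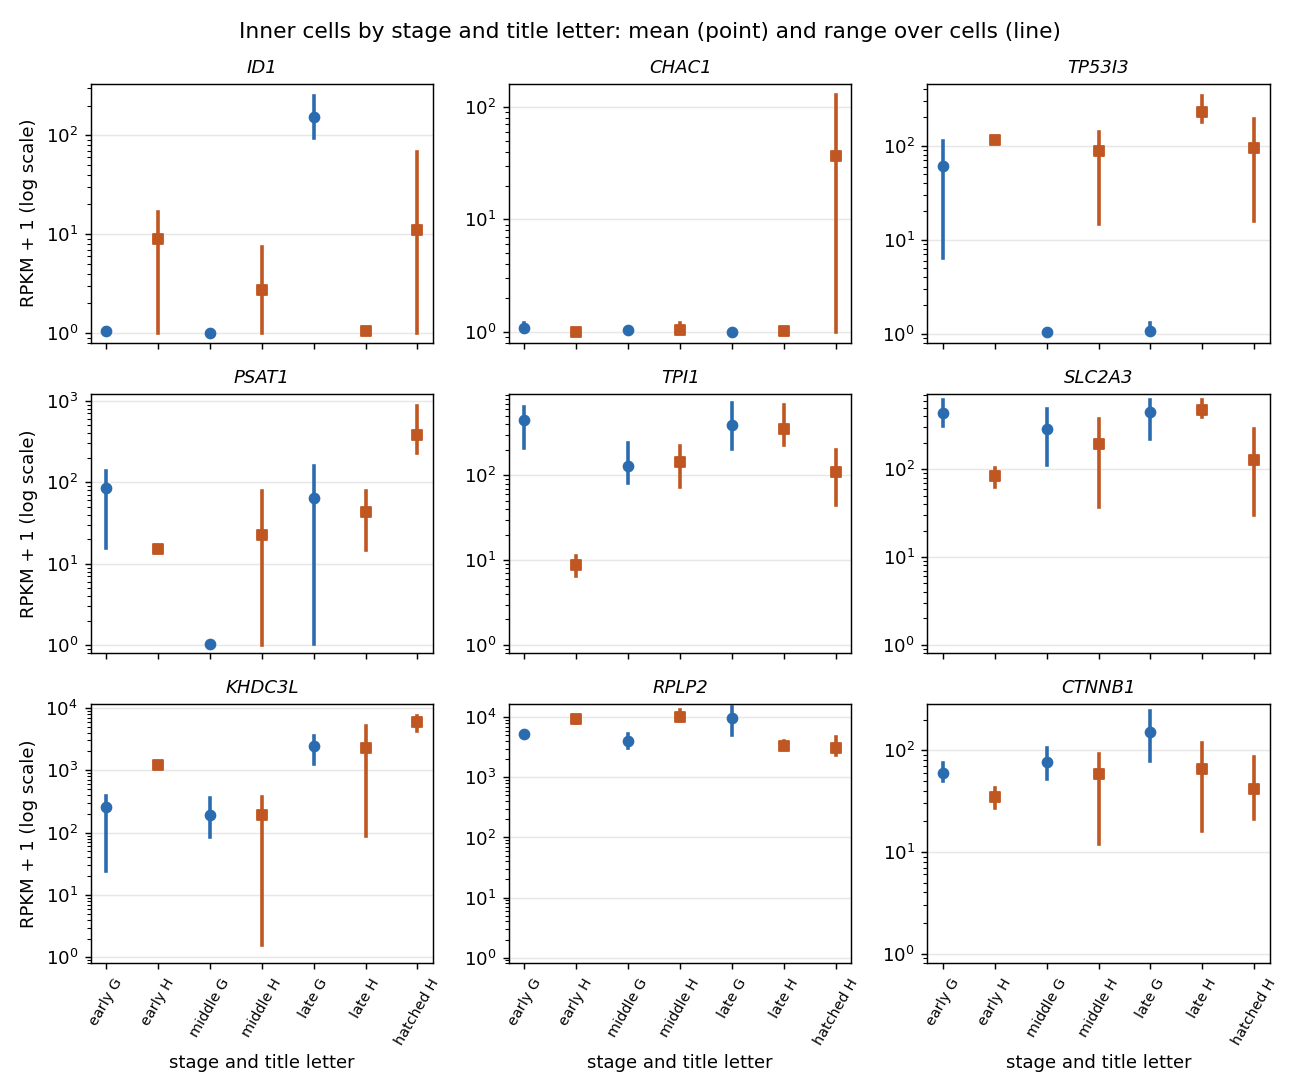
Levels of 9 genes in inner cells by stage and title letter as RPKM + 1 on a log axis, with the mean as a point and the range over cells as a line, letter G in blue circles and letter H in orange squares. Late G and hatched H are the 6 and 9 epiblast cells, the late H cells (4) have conflicting stage labels, and the early and middle groups hold 3 and 4 cells of letter G and 2 and 4 of letter H. ID1 is highest in late G, TPI1 and SLC2A3 are high in late cells of both letters, and TP53I3 is low in middle and late cells of letter G.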

How the data were processed

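The table holds 16049 genes in 95 single cells, each a library of poly(A)-tailed, PCR-amplified cDNA, per the labels' protocols, which mention no molecular identifiers. The values deposited by the authors were read as RPKM. The unit was inferred from the values, since no header names it. In 11459 genes (71.4%) every value was a whole multiple, within 0.05, of what 1 read is worth, which gave each cell's relative depth. Per the submitters' processing notes FastQC, TopHat2 2.1.0, HTSeq and DESeq2 were used, with no role given. Genome build and annotation are not given in the sources used here.

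Group means of RPKM, each with 1 RPKM added, were compared as a log2 ratio with Python 3.11.15, numpy 2.4.6 and pandas 2.3.3. A gene was measured at a mean of 5 RPKM in either group and counted at a 2-fold difference. The script was tested on simulated data. No test was run, since the cells of a group count as 1 sample.

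The members and gene lists were chosen with earlier results of these data known. Genes were named by rule, namely those with the largest ratios in each direction among genes without overlap, up to 4 members a list in each direction, all measured core, naive and primed pluripotency genes, and the 3 genes that chose the cells. NODAL, FOXH1, FGFR1, GAPDH, ASNS and SESN2 were named after their values were seen. Some genes that meet the rule are not reported here. Alternatives were other scalings, pseudocounts, filters on low values and summaries over cells, other limits for membership, cells with conflicting labels, depth, and each cell left out.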

Additional observations from a re-analysis of the deposited data

Results flagged for a closer look

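Each set of values checked was a named gene in 1 group, as log2 of RPKM with 1 added, with at least 1 cell at 5 RPKM or more. The recovered reads and the number of genes at 1 RPKM or more were also checked in each group. In 28 of 219 sets, 1 cell lay far from the rest of its group by Dixon's criterion. Chance alone meets this criterion in about 1 set in 20 only where values are normally distributed. Some sets here are not, such as late BMPR2 and hatched THY1, where the gene was detected in 1 cell only. The number of sets flagged thus cannot be compared with that rate, and no excess over chance is claimed. The values are listed as measured, and their cause was not tested.

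Among late cells, G-06 stood apart in pluripotency and streak genes. It was lowest in SOX2 at 0.0814 RPKM, where the others lay at 66.1 to 127 RPKM, and in TFAP2C at 0.162 RPKM, and highest in EOMES at 75.2 RPKM. G-14 was highest in NLRP7 at 867 RPKM and NR5A2 at 14.7 RPKM and lowest in CCNB1 at 0.206 RPKM. G-09 was highest in OTX2 at 46.8 RPKM, CFC1 at 45.1 RPKM and SFRP1 at 43.8 RPKM. GATA2 at 21.0 RPKM in G-20 and BMPR2 at 13.5 RPKM in G-18 were high in 1 late cell each.

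Among hatched cells, H-11 was highest in THY1 at 108.4 RPKM and lowest in DNMT3B at 392 RPKM and RPL22L1 at 9.14 RPKM. H-05 was lowest in DPPA2 at 225.6 RPKM, MTHFD1L at 0.2605 RPKM and GRB10 at 15.1 RPKM, and highest in ID4 at 27.2 RPKM and MIXL1 at 8.54 RPKM. H-15 was highest in HORMAD1 at 48.0 RPKM, and H-01 in T at 47.3 RPKM and PSAT1 at 865 RPKM. H-07 was lowest in DDIT4L at 0.059 RPKM, RASSF3 at 0.0304 RPKM and MEST at 10.25 RPKM. H-14 was lowest in SOX2 at 0.707 RPKM and DDX3X at 0.589 RPKM, and H-09 highest in GATA2 at 13.2 RPKM.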

How the results depend on the processing

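The counts of genes kept within 1.5 times of their values except as follows, and the cause was not tested unless named. Higher genes numbered 3453 with a minimum of 1 RPKM or no filter and 925 with a minimum of 20 RPKM, which test more and fewer genes. Lower genes numbered 454 with that stricter minimum, 589 on medians over cells and 405 on means of log2 values. Adding the late cells with conflicting labels left 7 higher and 1 lower genes without overlap. Lower genes without overlap numbered 42 under median-of-ratios scaling, 5 with equal totals and 21 without cells under 7 recovered megareads, which leaves out G-14.

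With 1 cell left out, higher genes ranged from 2221 to 2435, lower genes from 900 to 997, and genes without overlap from 72 to 108 (higher, the most without G-18) and from 13 to 32 (lower, with 32 without G-02, 25 without H-15, and 21 without G-06 or G-14). Fewer cells make an overlap rarer by construction.

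Among the named genes that differed at least 2-fold, 6 had a value of the opposite sign under an alternative. With the conflicting late cells FGF4 was at -2.001, LDHA at -1.76 and COX6B1 at -0.0044. With G-23, an alternative chosen after seeing the data, LEFTY2 was at -0.051. CFC1 ranged from -2.84 to 0.20 with 1 cell left out, the last without G-09, and BAX was at 0.50 on medians over cells. A NANOG limit of 200 or 10 RPKM, or no limit on APOA1, changed no member.

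No paired analysis was possible because the numbers in the titles name cells and pair nothing. At these depths a value near 0 cannot be told apart from RNA lost before sequencing, and 6 and 9 cells of unnamed embryos do not measure the spread between embryos.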
